A study of Mus musculus with 31 samples.

Results

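The genes described are those that encode the chains of the collagens, the rod-like proteins that make up most of the protein of the extracellular matrix. They were taken as every gene symbol made of Col, a type number, the letter a and a chain number, which gave 44 of the 24421 genes counted. By class they were 11 fibrillar genes, 6 of basement membrane collagen, 9 FACIT genes (fibril-associated collagens with interrupted helices), 6 of type VI, 2 of type VIII, 2 multiplexins, 4 transmembrane collagens and 4 others. Expression was measured by RNA sequencing of total RNA from fibroblasts freshly isolated from hearts of C57Bl/6 mice aged 8 to 12 weeks. The cells were cultured in 2D, in 3D, or in 1 arrangement after another, which was read from names such as 3D-2D. There were 3 libraries in each of 9 groups (3D-2D-2D and 3D-2D-3D, plain 3D and 2D, 3D-5days and 2D-5days, and 2D substrates of 0.5, 8 and 64 kPa) and 2 libraries of 3D-2D, 29 in all. No group carried a genetic change or an added agent in its labels. How long the other cultures were kept, what the substrates were made of and how many mice were used is not given in the sources here.

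Collagen chains wind around each other in groups of chains, as copies of 1 chain or as a fixed mix of chains, before they leave the cell. Fibrillar collagens form the tensile fibres of scar and of the heart's interstitium, type IV collagen forms the sheet of the basement membrane, and FACIT collagens such as types XII and XIV sit on the surface of fibrils. Type VI forms beaded filaments next to cells, type VIII a short-chain network best known in vessels and the cornea, and the multiplexins, types XV and XVIII, link basement membranes to the matrix beneath. In the heart, fibroblasts are the main source of fibrillar collagen, and its production is a measure of their activation.

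Libraries held between 8509987 and 29909400 gene counts. All 10 fibroblast markers had reads in every group. Libraries with the number 3 stood apart from numbers 1 and 2 in 2D, 3D, 3D-2D-3D and on the substrates, and number 1 stood apart at 5 days. Macrophage markers, all 14 of which had reads in every group, also differed between libraries. Their summed level was 8350.2, 5858 and 211 CPM (counts scaled to a common library size, corrected by TMM factors) in 3D against 1148, 1243 and 1446 in 2D. At 5 days it was 11412, 3073 and 3663 CPM in 3D against 2878, 712 and 704 in 2D. The part of macrophages in the results was not tested. Summed endothelial markers were at 131 to 359 CPM and mural markers at 125 to 545 CPM over all libraries. Results that rest on the libraries that stand apart are given with and without them. Separate cultures or animals are not stated for the libraries of any group, so p-values measure no more than the library-to-library spread, and this may be technical.

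Collagen transcripts took between 2.44% and 9.26% of the gene counts of a library. The share was highest after 3D-2D-2D, where it was 9.26, 9.15 and 8.81%, and was 4.45, 4.48 and 3.60% after 3D-2D-3D. In CPM the summed level was 40501 ± 5032 (SD, n = 3) in 3D-2D-3D and 103175 ± 4331 in 3D-2D-2D, with no overlap. The sum did not separate 3D from 2D, with 46379 ± 4462 CPM in 3D and 48846 ± 17081 in 2D (SD, n = 3, exact two-sided permutation p = 0.9). By library it was 59969, 57390 and 29179 CPM in 2D and 46021, 51009 and 42107 CPM in 3D. Libraries 1 and 2 were thus higher in 2D, and library 3 was higher in 3D. The smallest p that 3 libraries against 3 or 2 allow is 0.1, so no comparison of the sum could pass 0.05, and adjusted over the 9 comparisons the lowest was 0.45. In bulk samples, fewer cells of a type and less RNA per cell cannot be told apart.

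Fibrillar genes made up 51.0% to 83.7% of the collagen counts and basement membrane genes 9.34% to 38.6%. The fibrillar share was 72.9, 72.5 and 57.1% in the 2D libraries 1, 2 and 3, and 70.4, 70.8 and 55.3% in those of 3D. Library 3 was the lowest in both groups, by more than the difference between 2D and 3D within a number. It was also the lowest in 3D-2D-3D, at 59.2, 59.4 and 51.0%, whereas the 3D-2D-2D libraries had 76.2, 76.0 and 75.9%. The share of type VIII, which is nearly all Col8a1, was 2.83, 2.59 and 2.53% in 2D and 0.114, 0.0669 and 0.0604% in 3D at 5 days. The share of the multiplexins went the other way there, at 0.108, 0.0785 and 0.0820% in 2D and 1.27, 0.593 and 0.550% in 3D.

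**Figure D1:**
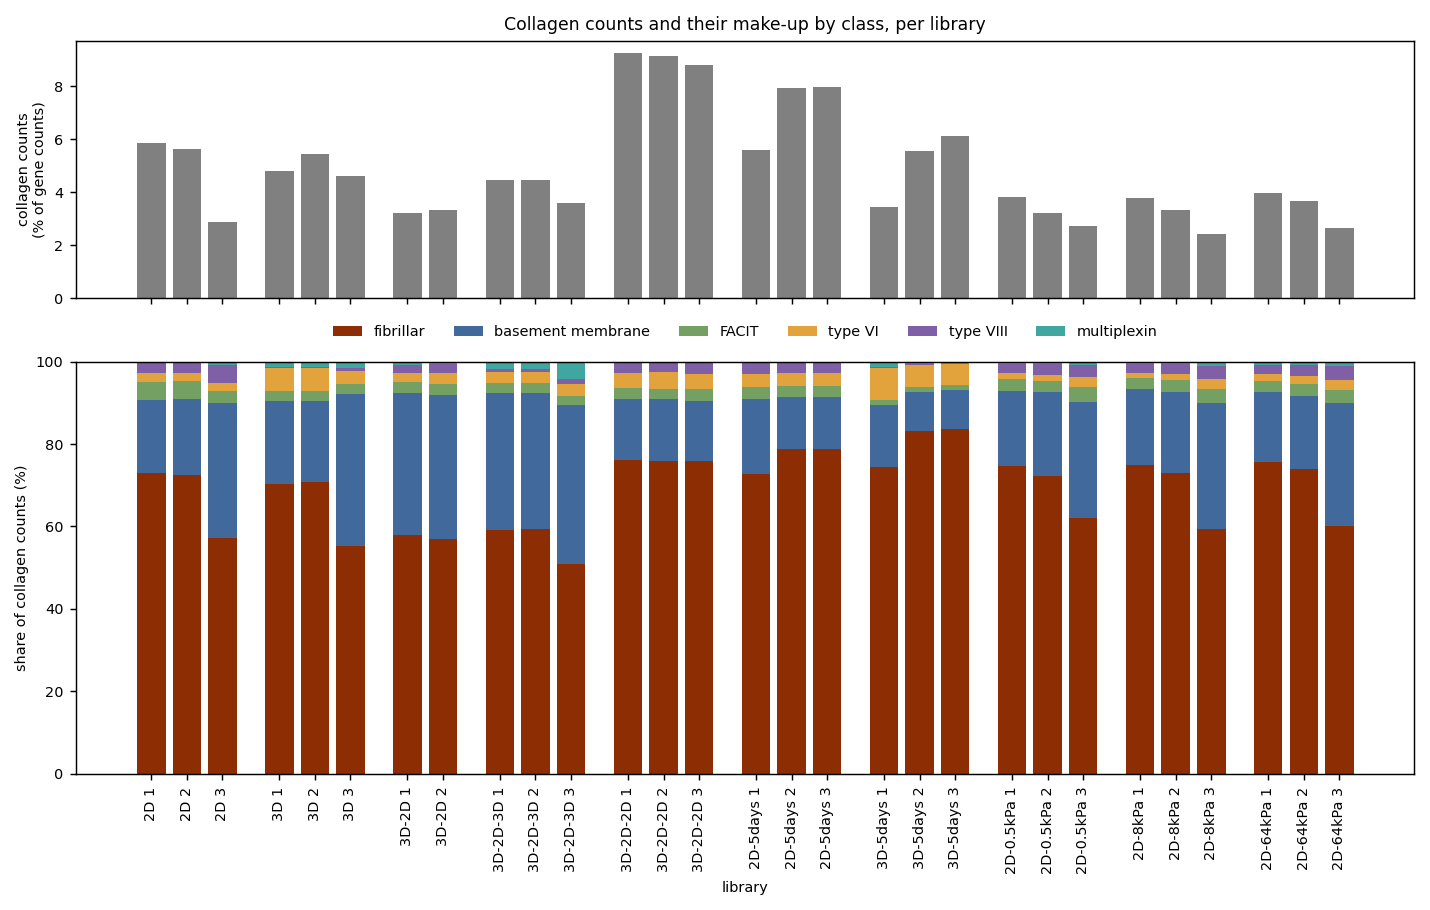
Collagen share of the gene counts in percent (top bars) and the make-up of the collagen counts by 6 classes in percent (stacked bars), 1 bar for each of the 29 libraries, ordered by group. The top bars run from 2.44% to 9.26%, with the highest in 3D-2D-2D, and fibrillar genes fill the largest part of each bar below.

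Of the 44 genes 36 had enough reads to be tested. Differences were tested with edgeR's quasi-likelihood test, values are log2 fold changes ± standard error, and a gene was called changed at a Benjamini-Hochberg adjusted p under 0.05 over all 14036 genes tested. Between 3D and 2D, 23 of 36 collagen genes were called, 16 higher and 7 lower in 3D, where 54.0% of all genes were called, 26.7% higher and 27.3% lower. The median over the 36 was 0.69, against 0.03 over all genes. All 4 type VI and both multiplexin genes rose in 3D, as did 4 of 6 FACIT genes, while the fibrillar class split into 3 that rose and 4 that fell. Of the 6 basement membrane genes 1 was called. When cells of 3D were moved on to 2D, 23 genes were called, not all of them the same ones. Of these, 4 were higher and 19 lower in 3D-2D, with 56.5% of all genes called, 28.8% higher and 27.7% lower. The 3D-2D cells set against cells of the 2D group gave 5 called genes, 2 higher and 3 lower, beside 14.4% of all genes, 6.85% higher and 7.54% lower.

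A return to 3D was called in 15 genes, 11 higher and 4 lower in 3D-2D-3D than in 3D-2D, beside 49.2% of all genes, 24.2% higher and 25.0% lower. At the last step, 22 genes differed between 3D-2D-2D and 3D-2D-3D, 6 higher and 16 lower in 3D-2D-3D, beside 40.4% of all genes, 19.8% higher and 20.6% lower. Of the 11 fibrillar genes 8 fell there and 2 rose. Gene counts were 21390600 to 29909400 in 3D-2D-3D and 9318780 to 13679200 in 3D-2D-2D. The last culture step and the set of libraries thus cannot be told apart. At 5 days 18 genes were called, 4 higher and 14 lower in 3D, beside 32.4% of all genes (14.9% higher and 17.5% lower). Of the 11 fibrillar genes 6 were called lower there and none higher. Col5a3, Col24a1 and Col27a1 were still higher in every 3D-5days library than in any 2D-5days library. Comparisons with a group in common share its libraries, so their counts are not separate evidence. With the libraries most alike within a group summed to 1 sample, a setting chosen after seeing the data, the call was lost by 9 genes in 3D-2D-3D versus 3D-2D-2D (Col1a2, Col2a1, Col4a5, Col5a3, Col7a1, Col14a1, Col16a1, Col17a1 and Col27a1), by Col11a2, Col17a1, Col18a1, Col1a2 and Col5a1 at 5 days, and by Col5a1, Col5a2, Col6a2, Col6a6, Col4a2, Col23a1 and Col28a1 in 3D with 2D. A fit of the 3D and 2D libraries alone called 18 genes, 13 higher and 5 lower, beside 5652 of all genes. It lost Col4a2, Col5a1, Col5a2, Col6a2 and Col6a3, gained Col4a4 and did not test Col6a6. With the replicate number as a block that fit called 16, 14 higher and 2 lower, beside 39.7% of all genes. The calls of Col4a2, Col5a1, Col5a2, Col11a1, Col12a1, Col23a1 and Col28a1 were lost with the block. With libraries 1 and 2 alone, 3D-2D with 2D gave 16 calls, beside 21.0% of all genes.

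**Figure D2:**
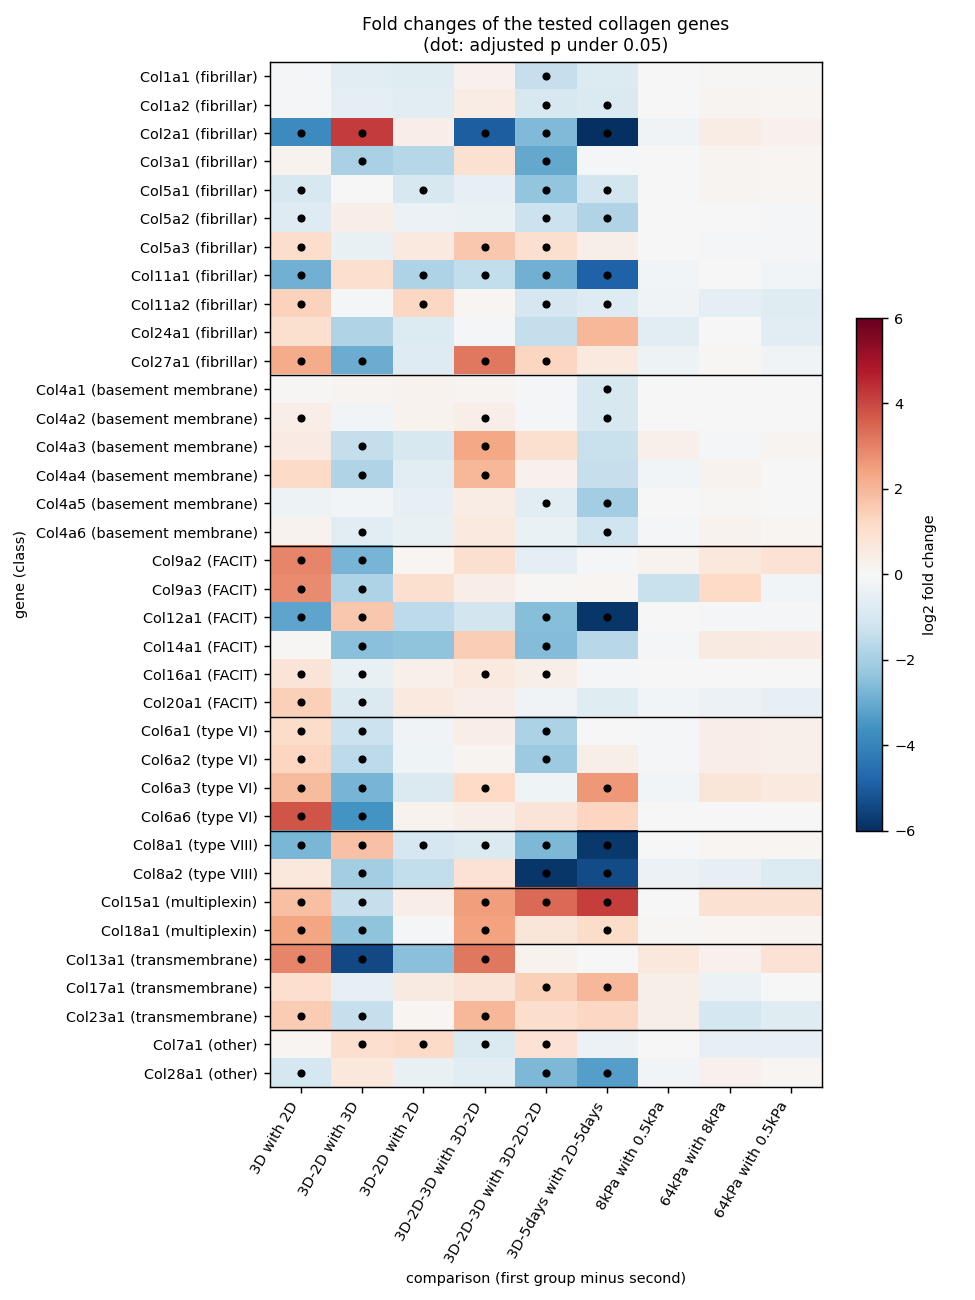
Heat map of the log2 fold change of the 36 tested collagen genes (lines, grouped by class) in 9 comparisons (columns), with a dot where the adjusted p is under 0.05. The 3 substrate columns hold no dot, and Col8a1 and Col15a1 have opposite colours, at -5.78 ± 0.31 and 4.15 ± 0.30 (SE) at 5 days.

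Col1a1 and Col1a2, the chains of collagen I, lay at overlapping levels in 3D and 2D. Col1a1 was at 16863, 15989.5 and 5336 CPM in the 2D libraries and 12876, 14298 and 9472 CPM in those of 3D, and 2D library 3 was the lowest of all. Neither chain was called, with -0.06 ± 0.33 for Col1a1 and -0.12 ± 0.26 for Col1a2. The levels separated after the third step, where Col1a1 was at 10607, 10573 and 6424 CPM in 3D-2D-3D and 25287, 24758 and 22798 CPM in 3D-2D-2D. Every 3D-2D-2D library was above every 3D-2D-3D library, and Col1a1 fell by 1.40 ± 0.33 (SE, adjusted p = 0.00173). Col1a2 fell by 0.96 ± 0.26 (SE), a call lost with the most alike libraries summed (adjusted p = 0.0704). At 5 days Col1a1 was at 14332, 21532 and 21902 CPM in 2D and 8130.5, 11367 and 12884 CPM in 3D, which do not overlap. The difference of -0.84 ± 0.33 was not called (adjusted p = 0.0549) but passed with the replicate number as a block (adjusted p = 0.000379) and without 2D-5days library 1, at -1.01. Col1a2 was called at -0.87 ± 0.26, and leaving out 2D-5days library 2 or 3 or 3D-5days library 1 ended that call, with values from -0.76 to -0.66.

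Col3a1, which encodes the chain of collagen III, the fine fibre found beside collagen I, spanned a wide range. It was at 8705, 8219.6 and 2631 CPM in 2D and 8837, 9929.5 and 4004 CPM in 3D, with library 3 lowest in both and no call (0.22 ± 0.61). On 2D after 3D its level was 1654 and 2279 CPM, below every 3D library. It fell by 1.95 ± 0.74 (SE, adjusted p = 0.0295), and the call was lost when any of 3D libraries 1 and 2 or either 3D-2D library was left out, with values between -2.19 and -1.71. A further 2D step brought 31709.8, 30834 and 29175 CPM, the highest levels of the gene in the series, and a return to 3D 4004, 4161 and 2900.2 CPM. The 3D-2D-2D libraries stood far above all 3D-2D-3D libraries, and Col3a1 fell by 3.05 ± 0.66 (SE, adjusted p = 0.000841). At 5 days the levels of 12114, 26187 and 26000.4 CPM in 2D and 11187, 23160.2 and 27314 CPM in 3D overlapped, with a difference of -0.06 ± 0.61.

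Types V and XI start and limit the growth of fibrils. Col5a1 was at 3181, 3055 and 1226 CPM in 2D and 1283, 1379 and 1124 CPM in 3D, where libraries 1 and 2 separated and library 3 did not. It fell by 0.98 ± 0.24 in 3D (adjusted p = 0.00156), Col5a2 by 0.76 ± 0.22 and Col11a1 by 2.89 ± 0.52. All 3 calls were lost with the replicate block, at adjusted p = 0.0853, 0.18 and 0.114. Among libraries 3 alone the values were -0.11 for Col5a1, 0.18 for Col5a2 and -0.21 for Col11a1, none called. Such values set 1 library against 1 and take the spread from the other groups. Without 3D library 3 Col11a1 was at -3.91. Col11a1 was at 636, 591 and 144 CPM in 2D and 29.1, 32.7 and 123 CPM in 3D, and the groups did not overlap, although library 3 of each lay close to the other. In the later steps all 3 chains were lower in 3D-2D-3D than in 3D-2D-2D in every library, with Col5a1 at -2.35 ± 0.25, Col5a2 at -1.30 ± 0.23 and Col11a1 at -2.89 ± 0.52 (SE). At 5 days they were lower in 3D as well, with -1.09 ± 0.24, -1.79 ± 0.23 and -4.85 ± 0.58. Col11a1 then stood at 248, 359 and 341 CPM in 2D and 4.67, 12.9 and 15.0 CPM in 3D. Against cells of the 2D group, 3D-2D cells had less Col5a1 (-0.95 ± 0.27) and Col11a1 (-1.87 ± 0.58). Both calls ended when 2D library 1 or 2 or either 3D-2D library was left out.

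Col5a3 and Col27a1 rose in 3D, while Col11a2 was higher in 3D with no stated time and lower in 3D in the other pair of comparisons. Col5a3, an alternative type V chain, was at 109, 96.5 and 57.9 CPM in 2D and 165, 190.4 and 189 CPM in 3D, and rose by 1.05 ± 0.26 (SE, adjusted p = 0.00163). Col27a1, a fibrillar chain known from cartilage, was at 15.6, 14.0 and 5.10 CPM in 2D, 61.4, 65.8 and 32.4 CPM in 3D, 6.43 and 7.02 CPM in 3D-2D and 73.0, 72.9 and 33.1 CPM in 3D-2D-3D. Its level was thus high in each 3D group of the sequence and low in 2D and 3D-2D, with no overlap between them. It rose by 2.22 ± 0.34 (SE, adjusted p = 9.91e-06) in 3D, fell by 2.98 ± 0.41 (SE, adjusted p = 2.62e-06) in 3D-2D and rose by 3.15 ± 0.41 (SE, adjusted p = 1.77e-06) in 3D-2D-3D. Against 3D-2D-2D it was higher at 1.27 ± 0.32, and with 3D-2D-3D library 3 alone at 0.42, not called. Col11a2, another type XI chain, was at 2.16, 3.00 and 2.28 CPM in 2D, 6.60, 6.97 and 5.69 CPM in 3D and 6.01 and 5.87 CPM in 3D-2D. It was higher than in 2D in both, at 1.37 ± 0.27 and 1.26 ± 0.30, and the latter call ended without either 3D-2D library. After the third step it was at 7.64, 7.31 and 4.26 CPM in 3D-2D-3D and 12.0, 13.6 and 13.3 CPM in 3D-2D-2D, without overlap, and was lower in 3D-2D-3D at -1.02 ± 0.26. At 5 days it was at 9.81, 11.6 and 8.48 CPM in 2D and 4.23, 9.10 and 4.08 CPM in 3D, which overlap through 3D library 2. It was called lower there, at -0.77 ± 0.27, and the call ended without 2D-5days library 1 or 2 or 3D-5days library 1 or 3, with library totals alone as the scaling and in a fit of these groups alone. Col24a1 stayed at or under 1.17 CPM and was called in no comparison.

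Col2a1, the chain of cartilage collagen II, was at 86.3, 86.8 and 169 CPM in 2D and 2.44, 2.10 and 19.4 CPM in 3D. Every 3D library was below every 2D library, and library 3 was the highest in both groups. It fell by 3.80 ± 0.79 (SE, adjusted p = 0.000379) in 3D, and by more without 3D library 3, at -5.66. In 3D-2D it was back at 178 and 126 CPM and in 3D-2D-3D at 3.75, 3.22 and 7.61 CPM, so each move crossed the whole gap again. These moves were called at 4.22 ± 0.84 and -4.95 ± 0.87 (SE), the former 6.07 without 3D library 3. After 3D-2D-2D the level was 32.1, 33.3 and 26.3 CPM, above 3D-2D-3D (-2.64 ± 0.78), and with 3D-2D-3D library 3 alone the difference was -1.997, not called. At 5 days the counts behind it were 5, 3 and 3 reads in the 3D libraries and 317, 109 and 144 in those of 2D, and the gene fell at -5.96 ± 1.20.

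**Figure D3:**
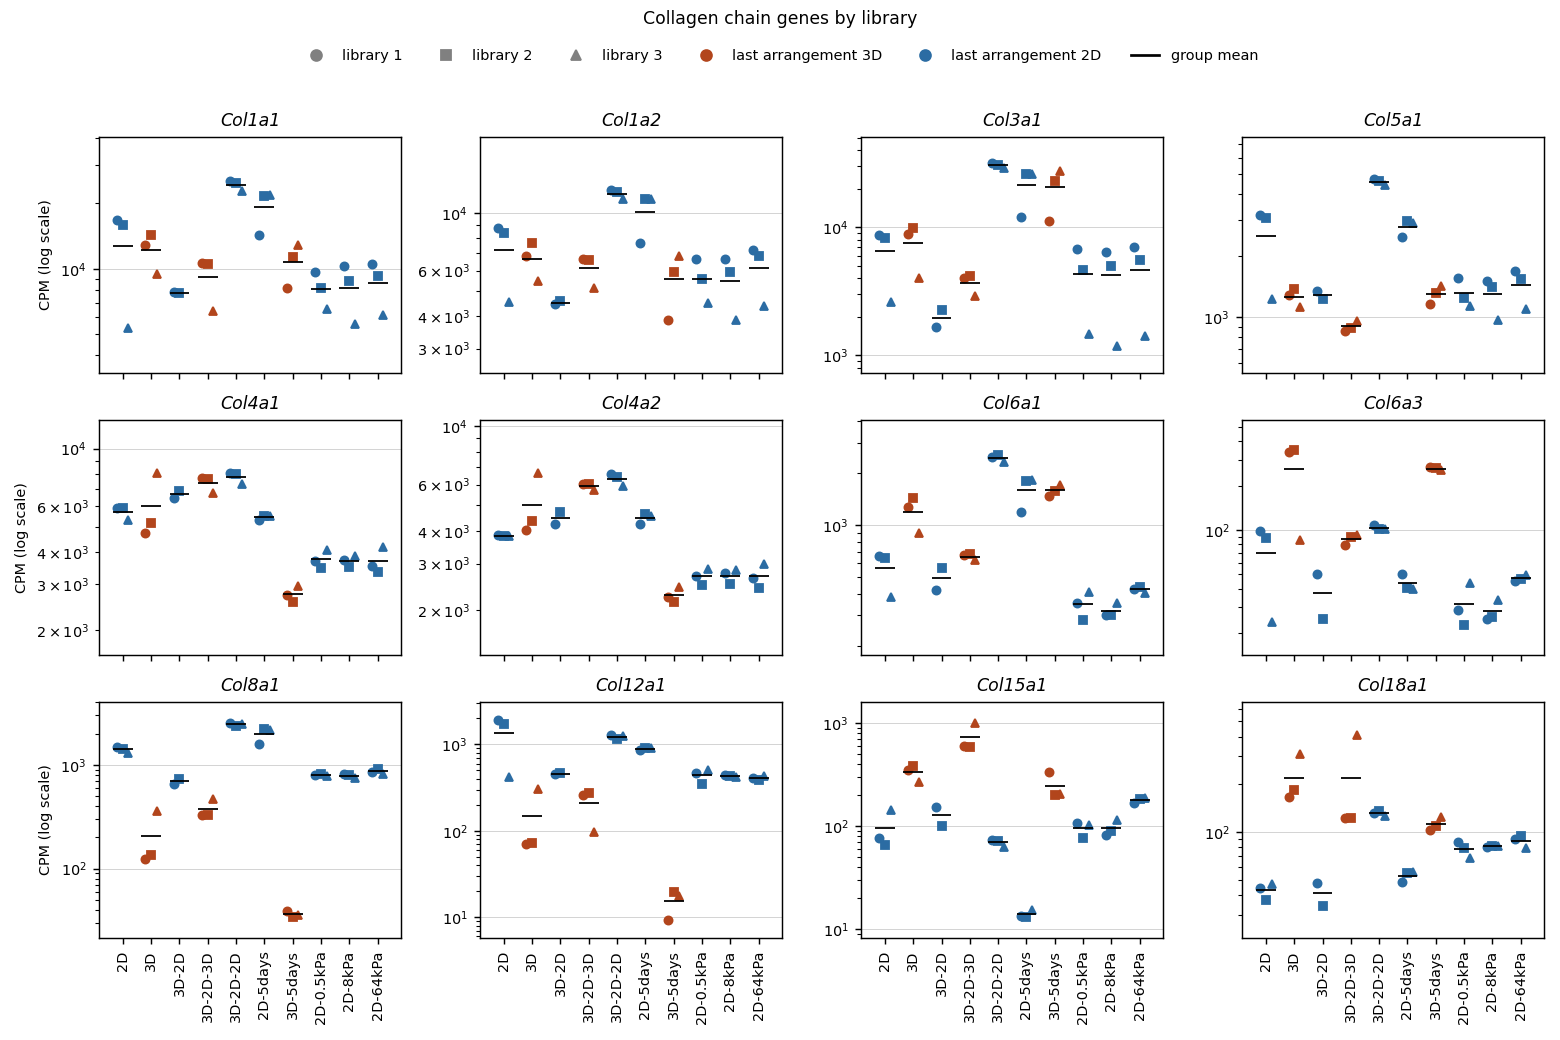
Level of 12 collagen genes in CPM (log axis) by library in the 10 groups. Points are libraries (circle 1, square 2, triangle 3), lines are group means, red groups ended in 3D and blue groups in 2D. Col8a1 is at or below 472 CPM in all red groups and at least 659 CPM in all blue groups.

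The basement membrane chains Col4a1 and Col4a2, which wind together in the common form of collagen IV, are encoded head to head on chromosome 8, at chr8:11198423-11312889 and chr8:11312805-11449287 of GRCm38.p6 (the mm10 build). These full extents overlap, on opposite strands. The start of Col4a1 from which its promoter window was taken, 11312826, lies inside its full extent, and from that start the overlap with Col4a2 is 22 bases. These bases are shown because reads from the overlap belong to both genes unless strand was counted. Which strand setting was used is not given in the sources here.

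The 22 bases lie at chr8:11312805-11312826 and reads 5′ to 3′ on the + strand:
Col4a1 and Col4a2 shared start: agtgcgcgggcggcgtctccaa

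Both genes were abundant in every library. Col4a1 was at 5927, 5912 and 5300.0 CPM in 2D and 4730.4, 5156 and 8085 CPM in 3D, overlapping because 3D library 3 was the highest (0.07 ± 0.14). Col4a2 was at 3859, 3810.0 and 3836 CPM in 2D and 4042, 4370.0 and 6633 CPM in 3D, so all 3D libraries were higher, library 3 by most. Its rise of 0.39 ± 0.13 (adjusted p = 0.0176) was lost without 3D library 3, at 0.12, and with the replicate block (adjusted p = 0.247). Among libraries 3 alone Col4a1 was at 0.63 and called. The clearest difference was at 5 days. Col4a1 was at 5299, 5519 and 5487 CPM in 2D against 2735, 2565 and 2952 CPM in 3D, and Col4a2 at 4230.2, 4627 and 4571 CPM against 2236, 2152 and 2439 CPM. Both chains lay lower in all 3D libraries and by nearly the same amount, -0.98 ± 0.14 and -0.98 ± 0.13 (SE). At the last step of the sequence they overlapped between 3D-2D-2D and 3D-2D-3D, at -0.08 ± 0.14 and -0.09 ± 0.13.

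Col4a5 and Col4a6, which pair in other basement membranes, followed at 5 days with -2.10 ± 0.20 and -1.19 ± 0.24. Col4a5 was at 738, 709.5 and 433 CPM in 2D and 379, 415 and 707 CPM in 3D and its direction turned with the library number. Libraries 1 and 2 alone gave -0.89 and libraries 3 alone 0.73 (adjusted p = 0.00898), against -0.32 ± 0.19 over all. In 3D-2D-3D Col4a5 was lower than in 3D-2D-2D (-0.63 ± 0.19), a call lost without 3D-2D-3D library 1 or 2 and at -0.34 with library 3 alone. Col4a3 and Col4a4, best known from kidney, stayed at or under 6.55 CPM. In 3D-2D-3D, library 3 carried most of both, at 2.29, 1.45 and 6.55 CPM for Col4a3 and 1.23, 1.18 and 4.84 CPM for Col4a4. Both were called higher than in 3D-2D, at 2.34 ± 0.58 and 1.996 ± 0.71, and without that library the values were 1.44 and 0.97, the latter not called.

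Of the FACIT genes Col12a1, whose product bridges neighbouring fibrils, differed widely between groups. It was at 1925, 1717 and 416 CPM in 2D and 70.8, 73.2 and 307 CPM in 3D, without overlap, but 2D library 3 was far below libraries 1 and 2 and 3D library 3 far above. Over all libraries it fell by 3.17 ± 0.53 (SE, adjusted p = 3.65e-05). Without 3D library 3 it was at -4.25, libraries 1 and 2 alone gave -4.68, libraries 3 alone -0.42 (not called), and the call was lost with the replicate block (adjusted p = 0.103). At 5 days the gene was at 857, 911 and 911 CPM in 2D and 9.23, 19.8 and 17.7 CPM in 3D. No library came near those of the other group, and it fell by 5.83 ± 0.61 (SE, adjusted p = 1.88e-07). After the third step it was at 259.6, 274 and 96.1 CPM in 3D-2D-3D and 1283, 1154 and 1249 CPM in 3D-2D-2D, again with no overlap (-2.55 ± 0.52). Moving 3D cells to 2D raised it to 449 and 461 CPM (1.596 ± 0.54), a call lost without 3D library 1 or 2 or either 3D-2D library, and 2.66 without 3D library 3.

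Col16a1, another FACIT chain, was at 306, 321 and 365 CPM in 2D and 531, 577 and 578 CPM in 3D. All 3D libraries were higher and 3D library 3 lay next to library 2, and Col16a1 rose by 0.77 ± 0.13 (SE, adjusted p = 4.39e-05). It was at 385 and 428 CPM in 3D-2D and 612, 617 and 587 CPM in 3D-2D-3D, called at -0.47 ± 0.15 and 0.58 ± 0.15, both lost without 3D-2D library 1. At 5 days it was at 370.1, 447 and 459 CPM in 2D and 296, 437 and 476 CPM in 3D, with library 1 lowest in both, and the groups overlapped (-0.08 ± 0.13). Col14a1, which binds to fibrils of collagen I, was at 194, 203 and 76.8 CPM in 3D-2D-3D and 1001, 943 and 971 CPM in 3D-2D-2D, and fell by 2.62 ± 0.75 (SE, adjusted p = 0.00761). Between 3D and 2D its libraries 3, at 68.1 and 38.4 CPM, were far below all others, with no call (0.07 ± 0.71). Col9a2 and Col9a3, chains of cartilage collagen IX, were at low levels and higher in 3D with no stated time. Col9a2 had 6, 5 and 4 reads in the 2D libraries and 62, 49 and 52 in those of 3D, at 2.92 ± 0.56, and Col9a3 stood at 2.84 ± 0.40. Col20a1 rose at 1.44 ± 0.31 from at most 1.81 CPM in 2D. Col9a2, Col9a3 and Col20a1 were not called in 3D-2D-3D versus 3D-2D-2D or at 5 days.

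Col6a1 and Col6a2 are neighbours on chromosome 10, at chr10:76708792-76726044 and chr10:76595756-76623630 of GRCm38.p6, and their chains join that of Col6a3 in type VI collagen. The 100 bases just before each RefSeq start are shown because both genes were called in the same direction in 3D with 2D, 3D-2D with 3D and the last step of the sequence, with capitals for GGGCGG or its reverse complement, the core of a GC box.

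Both genes lie on the minus strand, and the sequences read 5′ to 3′ on it, from chr10:76726045-76726144 and chr10:76623631-76623730:
Col6a1: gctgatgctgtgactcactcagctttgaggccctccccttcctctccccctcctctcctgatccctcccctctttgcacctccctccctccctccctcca
Col6a2: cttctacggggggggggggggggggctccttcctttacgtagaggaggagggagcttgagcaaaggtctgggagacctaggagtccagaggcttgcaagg

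Neither stretch of 100 bases holds the motif, but the 250 bases before the start of Col6a2 do. Col6a1 was at 665, 642 and 382 CPM in 2D and 1270.0, 1435 and 898 CPM in 3D, with every 3D library higher, and Col6a2 at 452, 437 and 138 CPM in 2D and 1033, 1163 and 336 CPM in 3D, where 3D library 3 fell within the 2D range. Col6a1 rose by 1.09 ± 0.20 (SE, adjusted p = 7.75e-05) in 3D, Col6a2 rose by 1.30 ± 0.38 and Col6a3 by 1.90 ± 0.43. Among libraries 3 alone the 3 values were 1.25, 1.30 and 1.87, all called. In 3D-2D the levels were 421 and 566 CPM for Col6a1 and 211 and 360.4 CPM for Col6a2, which is back to the range of 2D. The falls were -1.28 ± 0.23, -1.56 ± 0.44 and, for Col6a3, -2.78 ± 0.52, that of Col6a2 was lost without 3D-2D library 1, and that of Col6a3 was then -3.39. A further step on 2D left Col6a1 at 2475, 2564 and 2330.1 CPM and Col6a2 at 1458, 1542 and 1373 CPM. These were the highest levels of both genes in any group, and 3D-2D-3D lay below at -1.90 ± 0.20 and -2.17 ± 0.39.

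Col6a3 parted from its partners at that step and at 5 days. It was at 79.2, 89.7 and 91.8 CPM in 3D-2D-3D and 108, 101.3 and 100.97 CPM in 3D-2D-2D, a difference of -0.25 ± 0.42 that was not called. At 5 days it was at 50.003, 40.2 and 39.8 CPM in 2D and 267, 263 and 254 CPM in 3D, and rose by 2.59 ± 0.45 (SE, adjusted p = 0.000111). The 5-day values of Col6a1 were 1192, 1801 and 1824 CPM in 2D and 1482, 1590.1 and 1723 CPM in 3D, which overlap, and neither Col6a1 (-0.01 ± 0.20) nor Col6a2 (0.34 ± 0.37) was called. Col6a6, a further chain of the type, had 0, 1 and 1 reads in the 2D libraries, 19, 14 and 8 in 3D and 2 and 0 in 3D-2D. It was called between 3D and 2D and between 3D-2D and 3D, and at these counts its fold change depends on the prior count and is not given.

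The type VIII chains Col8a1 and Col8a2 are short and lie on different chromosomes, at chr16:57624256-57754737 and chr4:126286794-126314330. The 100 bases before their starts are shown because Col8a1 fell in 3D in each comparison below, with capitals as above.

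They read 5′ to 3′ on each gene's own strand, minus for Col8a1 from chr16:57754738-57754837 and plus for Col8a2 from chr4:126286694-126286793:
Col8a1: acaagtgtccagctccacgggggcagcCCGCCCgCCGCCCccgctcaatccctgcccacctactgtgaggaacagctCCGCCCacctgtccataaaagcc
Col8a2: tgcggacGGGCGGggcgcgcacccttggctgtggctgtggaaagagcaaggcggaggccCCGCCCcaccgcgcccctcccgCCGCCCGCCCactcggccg

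Both windows hold the motif more than once. In the 250 bases before the start, 32.7% of all 32851 RefSeq windows hold it on either strand, and 57.9% of the 38 windows of collagen genes. A match is a description of the letters only. TATAAA, also searched on both strands, was in 13.2% of the collagen windows and 12.4% of all. CCAAT was in 34.2% against 33.8%, and the motif GGAATG of TEAD factors in 10.5% against 12.6%.

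Col8a1 was at 1500.3, 1434 and 1291 CPM in 2D and 124, 136 and 361 CPM in 3D. All 3D libraries were below all 2D libraries, library 3 by least, and Col8a1 fell by 2.77 ± 0.27 (SE, adjusted p = 1.96e-08). Without 3D library 3 the value was -3.45, and among libraries 3 alone it was -1.82 and still called. In the steps that followed, the level was 659 and 726 CPM in 3D-2D, 328, 330.2 and 472 CPM in 3D-2D-3D and 2513, 2382 and 2502 CPM in 3D-2D-2D. It went up on 2D (1.74 ± 0.28, and 2.42 without 3D library 3), down on the return to 3D (-0.88 ± 0.27, lost without 3D-2D library 2) and was lower in 3D-2D-3D than in 3D-2D-2D at -2.71 ± 0.27. At 5 days it was at 1601, 2215 and 2163 CPM in 2D and 38.8, 34.5 and 35.9 CPM in 3D, the widest gap for the gene, and fell by 5.78 ± 0.31 (SE, adjusted p = 3.75e-12). The 3D-2D cells did not reach the level of the 2D group, at -1.02 ± 0.29, a call that ended without 2D library 1 or 2 or either 3D-2D library.

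Col8a2 was low in most groups, at 0.0823 to 1.05 CPM. The exceptions were 3D-2D-2D, at 20.05, 14.6 and 17.0 CPM, and 2D-5days, at 12.8, 29.3 and 29.7 CPM, both of which ended in 2D. All libraries of these groups stood above every other library of the series. Against their 3D partners, Col8a2 fell by 5.81 ± 0.55 (SE, adjusted p = 2.93e-08) in 3D-2D-3D and fell by 5.34 ± 0.56 (SE, adjusted p = 1.4e-07) in 3D-5days, where it had 6, 7 and 5 reads. In 2D with no stated time it had 6, 9 and 8 reads and the difference between 3D and 2D was 0.62 ± 0.58.

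Col15a1 and Col18a1 encode multiplexins, the latter the source of the fragment endostatin. Col15a1 was at 76.7, 66.2 and 144 CPM in 2D and 350.3, 384 and 271 CPM in 3D, and all 3D libraries were higher. It rose by 1.80 ± 0.27 (SE, adjusted p = 8.32e-06), while libraries 3 alone gave 0.92, not called (adjusted p = 0.0704). The move to 2D took it to 154 and 102 CPM (-1.39 ± 0.30) and the return to 3D to 597, 590.1 and 1001 CPM (2.51 ± 0.32). After 3D-2D-2D it was at 74.5, 72.5 and 62.4 CPM, below every 3D-2D-3D library, and the gene rose by 3.39 ± 0.29 (SE, adjusted p = 6.67e-09) in 3D-2D-3D. At 5 days its levels of 13.4, 13.2 and 15.3 CPM in 2D were the lowest of any group, those in 3D were 337, 201 and 208 CPM, and it rose by 4.15 ± 0.30 (SE, adjusted p = 8.56e-10). Col18a1 was at 44.4, 37.3 and 46.8 CPM in 2D and 166, 184 and 309 CPM in 3D, again without overlap, and rose by 2.36 ± 0.33 (SE, adjusted p = 3.63e-06). It fell to 47.8 and 34.3 CPM in 3D-2D (-2.42 ± 0.38) and was at 122, 122 and 412 CPM in 3D-2D-3D, where library 3 was far above the others (2.41 ± 0.38, and 1.55 without it). The 3D-2D-2D libraries, at 131, 137 and 126 CPM, lay between them, and the difference of 0.74 ± 0.31 was not called. At 5 days it rose by 1.09 ± 0.32 (SE, adjusted p = 0.0115), a call lost with the most alike libraries summed.

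The transmembrane collagens were near the floor. Col13a1 had 5, 1 and 2 reads in 2D, 28, 35 and 24 in 3D, 1 and 0 in 3D-2D and 11, 3 and 8 in 3D-2D-3D. It was called higher in 3D than in 2D and than in 3D-2D, and higher in 3D-2D-3D than in 3D-2D, a call that ended without either 3D-2D library or without 3D-2D-3D library 1 or 3. Col23a1 was at 0.250, 0.473 and 0.856 CPM in 2D and 1.88, 1.72 and 1.39 CPM in 3D (1.53 ± 0.54, and 2.16 without 2D library 3). This call was lost without 2D library 1 or 2, with the replicate block and among libraries 3 alone, at 0.71. Col17a1, a chain of epithelial attachment sites, stayed at or under 2.06 CPM, with 2, 2 and 1 reads in 2D and 5, 7 and 13 in 3D at 5 days and 2, 2 and 9 in 3D-2D-2D and 48, 26 and 19 in 3D-2D-3D. Both pairs were called higher in 3D and both calls ended when a library was left out, any of the 2D ones or 3D library 3 at 5 days, and library 1 or 2 of either group in the other pair. Of the others, Col28a1 was at 54.6, 52.9 and 27.3 CPM in 2D and 19.0, 22.2 and 22.9 CPM in 3D (-1.06 ± 0.32, adjusted p = 0.0618 with the replicate block). It reached 141, 132 and 131 CPM in 3D-2D-2D and 75.2, 150.0 and 139 CPM in 2D-5days. Both were above all libraries of their 3D partners, with -2.71 ± 0.33 in 3D-2D-3D and -3.29 ± 0.35 in 3D-5days. Col7a1, the chain of anchoring fibrils, was at 47.9 and 24.0 CPM in 3D-2D, 16.5, 13.0 and 19.4 CPM in 2D and 18.8, 17.6 and 17.1 CPM in 3D. Its calls at 1.14 ± 0.29 and 1.01 ± 0.29 both ended without 3D-2D library 1, the former also without 2D library 2. The 8 genes with too few reads for a test were Col9a1, Col19a1, Col22a1, Col6a4, Col6a5, Col25a1, Col10a1 and Col26a1, with at most 25 reads in any library.

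The comparisons 3D with 2D, 3D-2D-3D versus 3D-2D-2D and 3D-5days with 2D-5days share no library. Genes lower in 3D in all 3 were Col2a1, Col5a1, Col5a2, Col11a1, Col12a1, Col8a1 and Col28a1, which is 7 of the 36 tested, against 7.25% of all genes. They include 4 fibrillar chains, the fibril bridge Col12a1 and Col8a1. The gene higher in all 3 was Col15a1, 1 of 36 against 4.82% of all genes. Of the 7, all but Col2a1 and Col8a1 lost the call in 3D with 2D with the replicate block or among libraries 3 alone.

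Collagen genes often differed in their response to 3D between the cultures with no stated time and those at 5 days. The difference between the responses was called in 20 of 36 genes, 19 lower and 1 higher at 5 days, beside 25.5% of all genes, 13.2% lower and 12.3% higher. By class it was lower in 5 of 6 basement membrane genes, 5 of 6 FACIT genes and 4 of 11 fibrillar genes. Col4a1 and Col4a2, down at 5 days, differed by -1.05 ± 0.20 and -1.36 ± 0.19 (SE). With no stated time the flat value of Col4a1 and the rise of Col4a2 rested on 3D library 3. Col4a1 was at 4730 and 5156 CPM in 3D libraries 1 and 2, below every 2D library, and at 8085 CPM in library 3. Col8a1 was down at both and differed by -3.01 ± 0.36, or -2.30 without 3D library 3. Col8a2 had the lowest value at -5.96 ± 0.80. The difference for Col6a1 was -1.10 ± 0.28, and for Col6a3, up at both, 0.69 ± 0.60, not called. Col15a1 was up at both and more so at 5 days, by 2.35 ± 0.38. For Col12a1 the difference was -2.67 ± 0.71, and -1.56 and not called without 3D library 3. The groups of either response differ in read totals, and the time of the other cultures is not given, so time and set of cultures cannot be told apart.

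**Figure D4:**
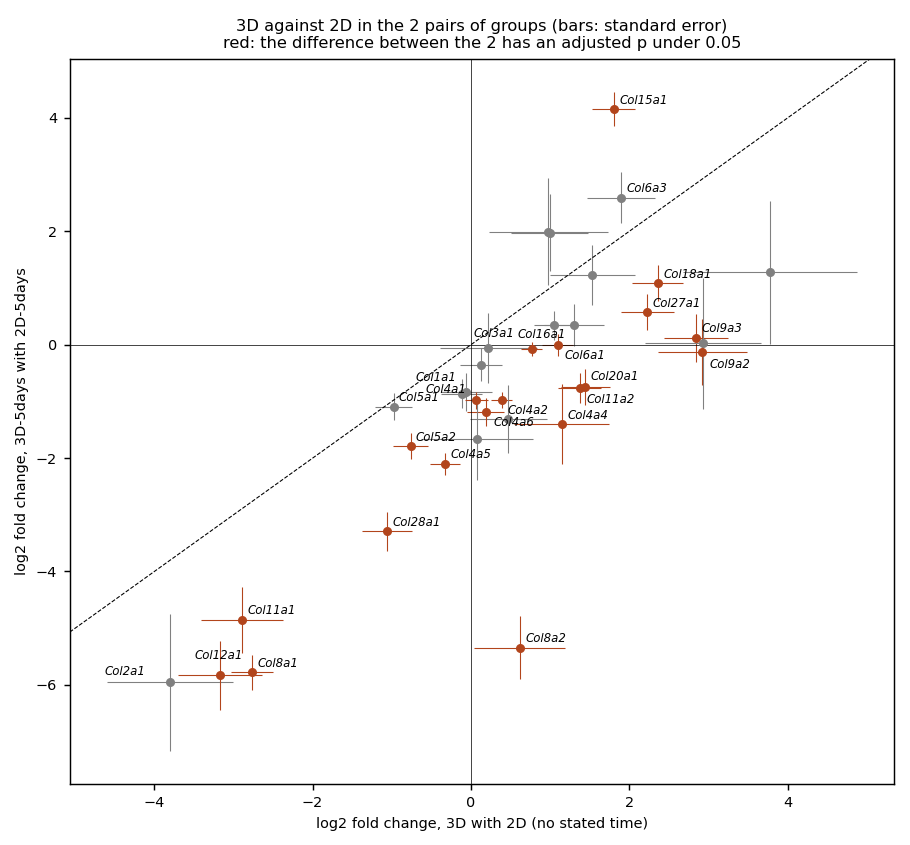
Log2 fold change of the tested collagen genes in 3D with 2D with no stated time (x axis) and at 5 days (y axis), with SE bars. Red points are the 20 genes whose responses differed, 19 of which lie below the diagonal, and Col15a1 lies above it at 1.80 and 4.15.

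Within a library the ratio of counts of a pair of genes does not depend on depth. The ratio of Col4a1 to Col4a2 was held in a narrow range over all 29 libraries, 1.17 to 1.55. It was still higher in 2D, at 1.54, 1.55 and 1.38, and in 3D-2D, at 1.53 and 1.46, than in 3D, at 1.17, 1.18 and 1.22. It overlapped at 5 days, at 1.25, 1.19 and 1.20 in 2D and 1.22, 1.19 and 1.21 in 3D. At the last step it also overlapped, at 1.22, 1.24 and 1.23 in 3D-2D-2D and 1.27, 1.27 and 1.18 in 3D-2D-3D. The ratio of Col1a1 to Col1a2, whose chains join in type I, ranged from 1.17 to 2.10 and was lowest in 2D library 3, at 1.17. Col3a1 over Col1a1 was far less constant, at 0.211 to 2.12. It was 1.38, 2.04 and 2.12 in 3D-5days and 0.845, 1.22 and 1.19 in 2D-5days, with no overlap, whereas 3D-2D had 0.212 and 0.295. At the last step the order turned, at 1.25, 1.25 and 1.28 in 3D-2D-2D and 0.377, 0.394 and 0.451 in 3D-2D-3D. With no stated time the groups overlapped, at 0.686, 0.694 and 0.423 in 3D and 0.516, 0.514 and 0.493 in 2D. For type VI, Col6a3 over Col6a1 was 0.0419, 0.0223 and 0.0218 in 2D-5days and 0.180, 0.165 and 0.148 in 3D-5days. In 3D-2D-2D it was 0.0437, 0.0395 and 0.0433 and in 3D-2D-3D 0.118, 0.132 and 0.147, so the share of Col6a3 was higher in 3D in both. Lengths of the genes were not used, so a ratio compares libraries and is not a ratio of molecules.

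**Figure D5:**
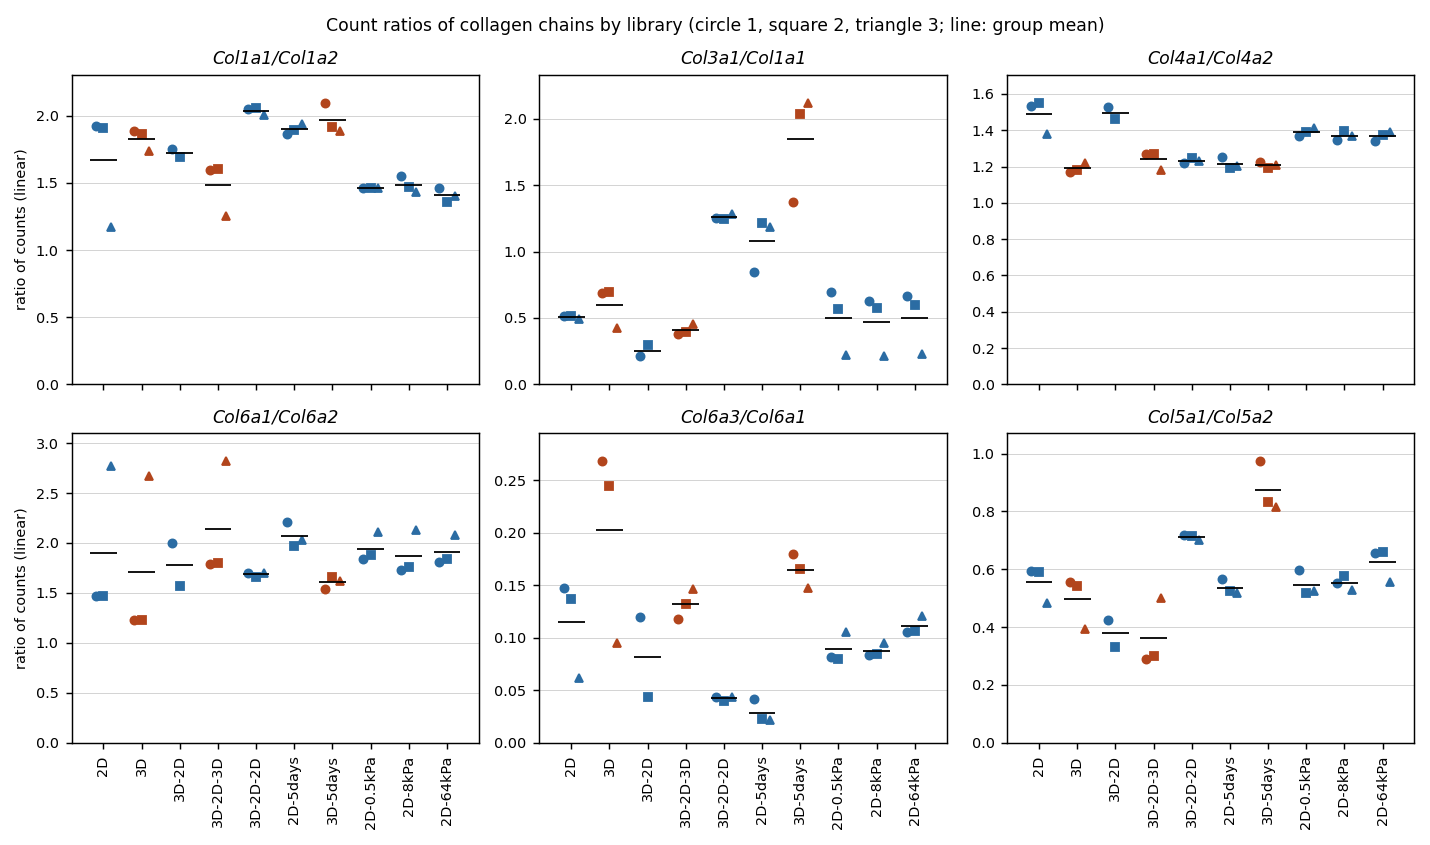
Ratio of counts of 6 pairs of collagen genes by library in the 10 groups (ratio on the y axis, points are libraries, lines group means). Col4a1/Col4a2 stays between 1.17 and 1.55, and Col3a1/Col1a1 spans 0.211 to 2.12.

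On substrates of 0.5, 8 and 64 kPa none of the 36 genes was called in any of the 3 comparisons with edgeR, beside 0%, 0% and 0% of all genes. An unadjusted p under 0.05 was reached by 1, 3 and 2 collagen genes for 8 with 0.5, 64 with 8 and 64 with 0.5 kPa, and DESeq2 called 0 in each. Col15a1 was at 109, 76.3 and 103 CPM at 0.5 kPa, 82.9, 90.4 and 116 CPM at 8 kPa and 170.2, 183 and 186 CPM at 64 kPa, so all libraries of the stiffest group were higher. Its difference between 64 and 8 kPa was 0.90 ± 0.26 (SE, adjusted p = 1). With the replicate number as a block, 0% of all genes were called for 64 with 0.5 kPa and 0.0158% for 8 with 0.5 kPa. Between 64 and 8 kPa that block called 8 collagen genes, 7 higher and 1 lower, beside 4.82% of all genes. The higher ones were Col15a1 (0.92 ± 0.07), Col6a3 (0.76 ± 0.08), Col6a1 (0.42 ± 0.07), Col6a2 (0.39 ± 0.05), Col3a1 (0.18 ± 0.04), Col1a2 (0.17 ± 0.03) and Col5a1 (0.16 ± 0.03), and Col7a1 was lower (-0.53 ± 0.11). The 3 main type VI chains were among them. Col6a1 was at 299.6, 303 and 354 CPM at 8 kPa and 427, 439 and 407 CPM at 64 kPa, and Col6a3 at 24.9, 25.6 and 33.4 CPM and 44.8, 46.7 and 49.1 CPM, neither overlapping. Col8a1 and Col12a1, which differed between 3D and 2D, were at 0.14 ± 0.25 and -0.07 ± 0.49 without the block.

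The genes that fold, process and crosslink collagen fell in 3D in most cases. Of the 28 tested, 16 fell and 5 rose in 3D with 2D, beside 27.3% of all genes lower and 26.7% higher. In 3D-2D-3D versus 3D-2D-2D 17 fell and 1 rose, beside 20.6% and 19.8%, and at 5 days 16 fell and 1 rose, beside 17.5% and 14.9%. In 3D-2D with 3D, 11 rose and 5 fell, beside 28.8% of all genes higher and 27.7% lower, and in 3D-2D-3D with 3D-2D 3 rose and 11 fell, beside 24.2% and 25.0%. The list's median was -0.65, -0.61 and -0.72 in the 3 comparisons that share no library, against 0.03, -0.01 and 0.00 over all genes. Lox, lysyl oxidase, which crosslinks the fibrils, was lower in 3D in all 3, at -3.26 ± 0.46, -3.01 ± 0.46 and -3.96 ± 0.48 (SE). Plod2, which hydroxylates lysines for crosslinks, was at -2.54 ± 0.33 and -2.25 ± 0.33 in the latter pair. Adamts14, a protease that trims the ends of procollagen, was at -2.54 ± 0.27 and -2.37 ± 0.29 in the first and last. It rose at 3.58 ± 0.29 when 3D cells were moved to 2D, and Lox at 3.13 ± 0.49. Tll1, a related protease, went down in 3D with 2D (-3.65 ± 0.86) and up in 3D-2D-3D versus 3D-2D-2D (3.85 ± 0.99).

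Of 9 tested collagen receptors, 4 fell and 2 rose in 3D with 2D, the latter close to the share of all genes (27.3% lower and 26.7% higher). In 3D-2D-3D versus 3D-2D-2D 6 fell and 1 rose, beside 20.6% and 19.8% of all genes, and at 5 days 5 fell and 0 rose, beside 17.5% and 14.9%. Itga11 and Itga1, integrin chains that bind collagen with the partner Itgb1, were lower in 3D in all 3. Itga11 was at -2.31 ± 0.47, -3.78 ± 0.49 and -3.03 ± 0.48, and Itga1 at -2.03 ± 0.32, -3.10 ± 0.33 and -2.44 ± 0.33 (SE). Itga2, another collagen-binding integrin chain, rose at 3.60 ± 0.51 in 3D-2D-3D. The receptor kinase Ddr1 was lower at 5 days at -2.44 ± 0.26. On the substrates no gene of either list was called.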

How the data were processed

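Total RNA of 29 libraries was sequenced, and the authors deposited raw read counts per gene symbol in 1 table with no normalization, per the file headers. The submitters' processing notes name the mm10 build and, with no role, HTSeq, TopHat, MACS2 and Bowtie. Samples were grouped by their titles. The 2 samples of chromatin accessibility were not analysed here. The 5 summary lines were left out. Reads not uniquely aligned came to 14.0% to 28.4% of all counts in a library.

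Counts were fitted with edgeR 4.0.16 (R 4.3.3, limma 3.58.1) in 1 model of all libraries with a mean per group, TMM scaling (factors 0.868 to 1.10), filterByExpr (14036 genes) and the robust quasi-likelihood test, checked on simulated data. Benjamini-Hochberg adjustment covered all genes tested, with calls at 0.05, and CPM used the scaled totals. A standard error is the fold change divided by the root of its F. Positions and sequences are those of RefSeq on GRCm38.p6. Of the 44 genes, 35 had a window before their start.

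The members, gene lists and rule for named genes were chosen with earlier results of these data known. Every member could be named, with library values for the 2 most abundant of each class and the 3 largest called rises and falls of a comparison. From the processing and receptor lists up to 4 called genes per comparison could be named. Same-numbered libraries deviated together across genes in 3D with 2D (correlations 0.141 to 0.232), at 5 days (0.288 to 0.572) and on the substrates (0.191 to 0.753). A library of another number was closer in some cases, at 0.165 against 0.141 for number 1 in 3D with 2D. For number 2 this was 0.317 against 0.288 at 5 days and 0.530 against 0.191 in 64 with 0.5 kPa. Only the libraries that stood apart matched their own number alone. In these comparisons the numbers were taken to pair libraries, from the data and not from the labels, so the block is not a known pairing. Alternatives were other scalings and filters, DESeq2 1.42.0, fits of the compared groups with and without the replicate block, each library left out, and, chosen after seeing the data, libraries by number and the most alike libraries summed.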

Additional observations from a re-analysis of the deposited data

Results flagged for a closer look

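The response to 3D at 5 days differed from that with no stated time in 20 collagen genes, by edgeR's quasi-likelihood test of the difference itself (Benjamini-Hochberg adjusted p under 0.05 over all genes tested). Values are the 5-day log2 fold change minus the other, ± SE. In the type VIII pair they were -5.96 ± 0.80 for Col8a2 and -3.01 ± 0.36 for Col8a1. Among FACIT genes they were -3.05 ± 0.81 for Col9a2, -2.71 ± 0.58 for Col9a3, -2.67 ± 0.71 for Col12a1, -2.19 ± 0.45 for Col20a1 and -0.84 ± 0.19 for Col16a1.

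The basement membrane genes stood at -2.55 ± 0.92 for Col4a4, -1.78 ± 0.27 for Col4a5, -1.38 ± 0.33 for Col4a6, -1.36 ± 0.19 for Col4a2 and -1.05 ± 0.20 for Col4a1. Fibrillar genes were at -2.14 ± 0.38 for Col11a2, -1.96 ± 0.71 for Col11a1, -1.65 ± 0.46 for Col27a1 and -1.02 ± 0.32 for Col5a2. Col28a1 was at -2.22 ± 0.45, Col6a1 at -1.10 ± 0.28 and Col18a1 at -1.27 ± 0.45. Col15a1 alone was positive, at 2.35 ± 0.38.

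Leaving out 1 library ended the call of Col11a1, Col12a1, Col18a1, Col4a4 and Col5a2, and 3D library 3 was such a library for each of them. Without it Col11a1 was at -0.92. Col4a4 was at -3.22 without 3D-5days library 1 and -1.95, not called, without 3D-5days library 2. Summing the most alike libraries gave 9 calls, beside 1150 of all genes.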

How the results depend on the processing

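The count of called collagen genes depended most on the processing in 3D-2D with 2D, where 5 were called beside 2019 of all genes. It was 8 with DESeq2 and 2 in a fit of only those groups, beside 2542 and 523 of all genes. With the most alike libraries summed it was 0 and with libraries 1 and 2 alone 16, beside 85 and 2947 of all genes. Leaving out 1 library at a time gave 0 (without 3D-2D library 1) to 16 (without 2D library 3). In 3D-2D with 3D (23 called) the count was 12 with libraries summed and 12 (without 3D-2D library 1) to 22 with 1 left out. In 3D-2D-3D with 3D-2D (15 called) it was 9 (without either 3D-2D library) to 12. Summing alike libraries gave 13 in 3D-2D-3D versus 3D-2D-2D (1 higher and 12 lower), beside 3198 of all genes. It gave 9 for the difference between the responses, beside 1150 of all genes. Library 3 alone gave 10 at 5 days. The causes were not tested, and some of these settings also leave fewer libraries.

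With the replicate number as a block, 19 genes were called in 3D-2D with 2D, 23 in 3D-2D-3D with 3D-2D and 8 in 64 with 8 kPa, against 5, 15 and 0 without it and beside 48.0%, 69.6% and 4.82% of all genes. The first pair of comparisons shares only numbers, with 2 pairs each. In 3D with 2D, where the numbers were taken to pair libraries, the block gave 16 calls, 14 higher and 2 lower, beside 39.7% of all genes. Without the block 16 were higher and 7 lower. At 5 days the block gave 24 calls against 18, beside 42.2% of all genes. Beside the calls given with their genes, the block also called Col4a4 in 3D with 2D and Col14a1, Col23a1, Col27a1, Col4a4, Col5a3 and Col6a2 at 5 days.

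Direction turned for Col4a5 in 3D with 2D, at 0.73 with libraries 3 alone, and for Col5a2, at 0.18. Scaling by library totals alone moved the median of all genes by 0.13 in 3D with 2D, -0.14 in 3D-2D with 3D, 0.23 in 3D-2D-3D versus 3D-2D-2D and 0.13 at 5 days. It gave 9 higher and 15 lower in the third, and a summed collagen level of 90764.4 CPM in 3D-2D-2D. Of the values of single genes under the alternatives, 5087 kept their direction and side of the threshold, 258 lost the call, 118 gained it and 2 turned. Shares per kilobase of coding length were not run, since no gene lengths were used here. Counts near the floor limit Col6a6, Col13a1, Col17a1 and Col9a2.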
